A study of Homo sapiens with 48 samples.

Results

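The zinc finger genes of chromosome 19 were taken as the rows of the count table with chromosome 19, the protein-coding biotype and a symbol made of ZNF and a number, which gave 237 of 60610 listed genes. They were measured in HEK293, a line of human embryonic kidney cells. All groups were 1 clone with a stable AT1R transgene, which codes for a receptor of angiotensin II (AII), selected with puromycin under the receptor blocker losartan, so the results stand for that clone. After a change to medium without serum, cells received no stimulus (control), AII at 1 nM, epidermal growth factor (EGF) at 10 µg/L, or the 2 together (AII + EGF), and polyadenylated RNA was sequenced after 6 h and 24 h. The comparisons ask how each stimulus, and both together, shifted these genes against the control of the same time. Of 48 libraries 38 were used: 4 control, 5 AII, 3 EGF and 4 AII + EGF libraries at 6 h, and 6, 5, 5 and 6 libraries in the same order at 24 h.

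Most of these genes encode KRAB zinc finger proteins. Arrays of zinc fingers bind DNA, and the KRAB domain recruits TRIM28, which brings the histone methyltransferase SETDB1 and HP1 proteins that compact chromatin. The genes arose by tandem duplication, lie in clusters along the chromosome, and many of their products silence transposable elements.

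The longest open reading frame of a GENCODE transcript was found for 236 of the 237 genes, and 197 of these held a stretch that matched the start of a KRAB domain (KRAB-A-like). Levels are given as CPM, a gene's counts scaled to a library total of one fixed size for all libraries. After a filter on low counts 199 genes were tested and 38 were not. The highest mean level among the untested genes was 0.232 CPM, the lowest among the tested genes was 0.217 CPM, and 2 genes had no count. The untested genes include ZNF93, a repressor of LINE-1 elements, with a mean of 0.0876 CPM. Of the tested genes 163 had a KRAB-A-like stretch, and the proteins of the tested genes held a median of 12 fingers (1 to 31). The median level of the tested genes was 10.7 CPM (0.217 to 204 CPM), beside 11.8 CPM for all 19626 tested genes, and 152 of them (76.4%) lay above 5 CPM. Per kilobase of transcript, ZNF146, whose protein consists of fingers without a KRAB domain, stood highest at 54.0 CPM per kb, and the median was 2.71 CPM per kb.

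Of the 237 genes 206 had a promoter in the RefSeq table (GRCh38.p14, 250 bases before and 50 after the start). The letters CCGGAAG, the core that ETS factors bind, stood on either strand in 87 of them (42.2%), in 32.8% of 192 promoters of ZNF genes on other chromosomes, in 14% of 15252 protein-coding promoters and in 10.3% of all 35116 promoters. The letters AACTACA, picked after reading the promoters shown here, stood in 37 (18%), against 7.81% of the other ZNF promoters, 3.17% of protein-coding promoters and 3.19% of all. The cAMP response element TGACGTCA was found in 9 (4.37%, against 4.17% of the other ZNF promoters, 2.55% of protein-coding promoters and 1.85% of all), the AP-1 element TGACTCA in 4 (1.94%, against 3.65%, 3.98% and 4.95%) and the EGR element GCGTGGGCG in 3 (1.46%, against 0.521%, 1.07% and 0.795%), searched on both strands, and none of these motifs contains another. For 4 genes that fell under AII + EGF at 24 h, the 250 bases before the start that the promoter table uses are shown 5′ to 3′ in the direction of transcription, because 3 of them carry both CCGGAAG and AACTACA and the gene that fell most, ZNF235, carries neither in its window. Capitals mark these letters on either strand. The windows are chr19:58002821-58003070 (minus strand) for ZNF606, chr19:57527106-57527355 (plus) for ZNF549, chr19:57769426-57769675 (plus) for ZNF586 and chr19:44305026-44305275 (minus) for ZNF235. The table's start for ZNF606 lies inside the span of the gene as RefSeq gives it, so its window precedes an inner transcript start and overlaps the gene.
ZNF606: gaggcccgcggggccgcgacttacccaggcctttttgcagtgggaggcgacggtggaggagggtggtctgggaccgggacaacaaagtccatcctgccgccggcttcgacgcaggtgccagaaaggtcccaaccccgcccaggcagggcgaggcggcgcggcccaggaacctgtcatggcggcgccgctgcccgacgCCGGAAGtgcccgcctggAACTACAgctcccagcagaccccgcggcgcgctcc
ZNF549: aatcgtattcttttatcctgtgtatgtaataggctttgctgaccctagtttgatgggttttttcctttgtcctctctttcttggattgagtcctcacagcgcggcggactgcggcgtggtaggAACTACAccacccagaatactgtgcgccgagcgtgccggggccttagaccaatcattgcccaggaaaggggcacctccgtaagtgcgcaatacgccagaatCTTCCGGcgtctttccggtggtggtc
ZNF586: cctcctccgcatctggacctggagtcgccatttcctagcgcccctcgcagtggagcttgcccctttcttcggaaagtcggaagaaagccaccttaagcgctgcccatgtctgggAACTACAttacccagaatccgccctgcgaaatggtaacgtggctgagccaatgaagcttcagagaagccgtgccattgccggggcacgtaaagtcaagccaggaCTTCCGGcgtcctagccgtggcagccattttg
ZNF235: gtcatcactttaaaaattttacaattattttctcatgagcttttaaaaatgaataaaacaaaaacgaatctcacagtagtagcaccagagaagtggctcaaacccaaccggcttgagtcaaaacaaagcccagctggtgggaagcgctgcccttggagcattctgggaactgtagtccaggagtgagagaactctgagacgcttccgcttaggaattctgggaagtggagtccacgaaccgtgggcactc

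The used libraries held 17.8 M to 30 M counts. Of 1128 pairs of libraries 4 agreed within sampling noise (chi-square per degree of freedom 0.397, 0.401, 0.455 and 0.505, next pair 2.02), 3 of them across different labels, and these 8 libraries were left out. Replicate 6 of AII 6 h and of AII + EGF 6 h were left out because their levels of the EGF target gene EGR1 (40.1 and 4.66 CPM) went against their labels, the AII + EGF 6 h libraries in use holding 186 to 280 CPM. Of the used libraries, replicate 6 of EGF 24 h and AII + EGF 24 h held 1.33 and 1.01 CPM of ETV5, another target. The other libraries of their groups held 10.4 to 16.8 CPM and the 24 h controls 0.713 to 1.00 CPM. Counts of calls in the comparisons at 24 h are therefore also given without replicate 6 of the 4 groups. Counts by cluster, GC content, KRAB-A-like stretch or promoter are not. The HEK293 markers NEFL and NEFM were present in every used library (at least 595 and 2400 CPM) and PAX2 was low (0.274 to 3.90 CPM). Their levels were not all even, as AII + EGF at 6 h raised NEFM (log2 change 1.32) and PAX2 (2.55). AGTR1, the gene of AT1R, rose under AII + EGF by 1.23 at 6 h and 0.83 at 24 h (adjusted p = 4.93e-07 and 5.28e-05, edgeR). Its mean at 24 h was 7360 CPM in the controls and 13100 CPM under AII + EGF. Whether this bears on the zinc finger genes was not tested. Of the markers of other cells PTPRC, PECAM1 and ALB reached at most 0.0703, 0.367 and 0.399 CPM, and COL1A1 held 11.1 to 44.7 CPM. The labels do not say that libraries came from separate cultures, so p-values measure the spread between libraries, which may be technical. Fewer cells that express a gene and less RNA per cell cannot be told apart in these bulk samples.

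AII + EGF for 24 h lowered 45 of the 199 tested zinc finger genes (22.6%) and raised 1 (0.503%), at an adjusted p under 0.01 in edgeR's quasi-likelihood test over all tested genes. Over all tested genes 5.10% fell and 5.29% rose. The median log2 change of the zinc finger genes was -0.27, against -0.02 over all tested genes, and 164 of the 199 (82.4%) had a negative change, against 53.3% of all. With a further minimum of 1.5-fold and 5 CPM, 13 fell (1.20% of all genes) and 1 rose (1.70%). In 21 genes each AII + EGF library lay under each control library, beside 2.11% of all tested genes, and 19 of these were among the 45. DESeq2 gave 47 falls, which included all of the 45, and 1 rise, beside 1058 falls and 1410 rises over all tested genes.

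ZNF235, a KRAB zinc finger gene at chr19:44286348-44305025 (GRCh38.p14, as for all gene positions), fell most. Its control libraries at 24 h held 3.01 to 5.29 CPM (median 3.38, n = 6) and its AII + EGF libraries 0.676 to 1.97 CPM (median 1.11, n = 6). The groups did not overlap, and the log2 change was -1.62 ± 0.20 (SE, adjusted p = 3.29e-07, edgeR). ZNF606 at chr19:57977053-58003346, a KRAB zinc finger gene, held 9.79 to 13.9 CPM in the controls (median 12.4) and 5.32 to 8.51 CPM under AII + EGF (median 6.19). Its groups were separate too, with a log2 change of -0.92 ± 0.11 (adjusted p = 9.51e-08). ZNF416 held 5.54 to 10.6 CPM in the controls (median 6.61) and 2.68 to 4.64 CPM under AII + EGF (median 4.07), also without overlap, a log2 change of -0.93 ± 0.16 (adjusted p = 7.02e-05).

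The other large falls at 24 h were of similar size. ZNF583 held 5.10 to 6.60 CPM in the controls (median 5.52) and 2.27 to 3.79 CPM under AII + EGF (median 2.80), with a log2 change of -0.93 ± 0.15. ZNF180 held 15.5 to 22.5 CPM (median 17.6) and 8.02 to 13.7 CPM (median 10.9), with a log2 change of -0.74 ± 0.11. The groups of these genes did not overlap. ZNF610 (-0.94 ± 0.20), ZNF836 (-0.88 ± 0.17) and ZNF649 (-0.76 ± 0.14) completed the 8 largest falls. Their adjusted p in edgeR was 0.000642, 0.000223 and 0.000192, and ZNF610 was near 1 CPM. The calls of ZNF610 and ZNF649 were lost in a fit on only the groups compared (adjusted p = 0.024 and 0.0235). ZNF549 and ZNF586, named here because their promoter windows are printed, fell by 0.72 ± 0.09 and 0.60 ± 0.08 on the log2 scale.

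Members with a known product spanned both outcomes. ZNF274, which binds the 3′ ends of zinc finger genes and recruits SETDB1, held 49.8 to 60.4 CPM in the 24 h controls (median 56.2) and 41.4 to 52.1 CPM under AII + EGF (median 43.4), a log2 change of -0.34 ± 0.06 (adjusted p = 9.77e-05). The groups overlapped through replicate 6 of AII + EGF, the highest of its group, and the call was lost without a filter on low counts or with only the groups compared (adjusted p up to 0.017). ZNF473, a factor of histone pre-mRNA processing, fell by 0.37 ± 0.09 on the log2 scale (adjusted p = 0.0043), a call that was lost in 6 of the 12 fits that each left out 1 library (adjusted p up to 0.0248). ZNF224, described as a repressor of the aldolase A gene, had a log2 change of -0.47 (adjusted p = 0.0492), and ZNF91, a repressor of SVA elements, of -0.26 (adjusted p = 0.50). ZNF175 changed by -0.14 (adjusted p = 0.24) and ZNF420, a regulator of p53, by -0.12 (adjusted p = 0.349), and none of these 4 passed in edgeR. The 8 members with the highest mean CPM did not pass at 24 h either. ZNF146 (-0.07), ZNF121 (0.19), ZNF331 (0.10), ZNF507 (0.09), ZNF266 (-0.27), ZNF317 (0.14), ZNF302 (-0.46) and ZNF714 (0.12), given as log2 changes, had adjusted p from 0.039 to 0.768.

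The gene that rose, ZNF541, encodes a zinc finger protein without a KRAB-A-like stretch that is known from germ cells. It held 0.794 to 3.10 CPM in the 24 h controls (median 1.59) and 3.94 to 6.81 CPM under AII + EGF (median 4.90). The groups did not overlap, and the log2 change was 1.46 ± 0.24 (adjusted p = 4.02e-05). At 6 h it held 0.592 to 0.958 CPM in the 4 controls and 0.267 to 0.857 CPM in the 4 AII + EGF libraries, a log2 change of -0.37 that did not pass in edgeR (adjusted p = 0.529).

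**Figure D1:**
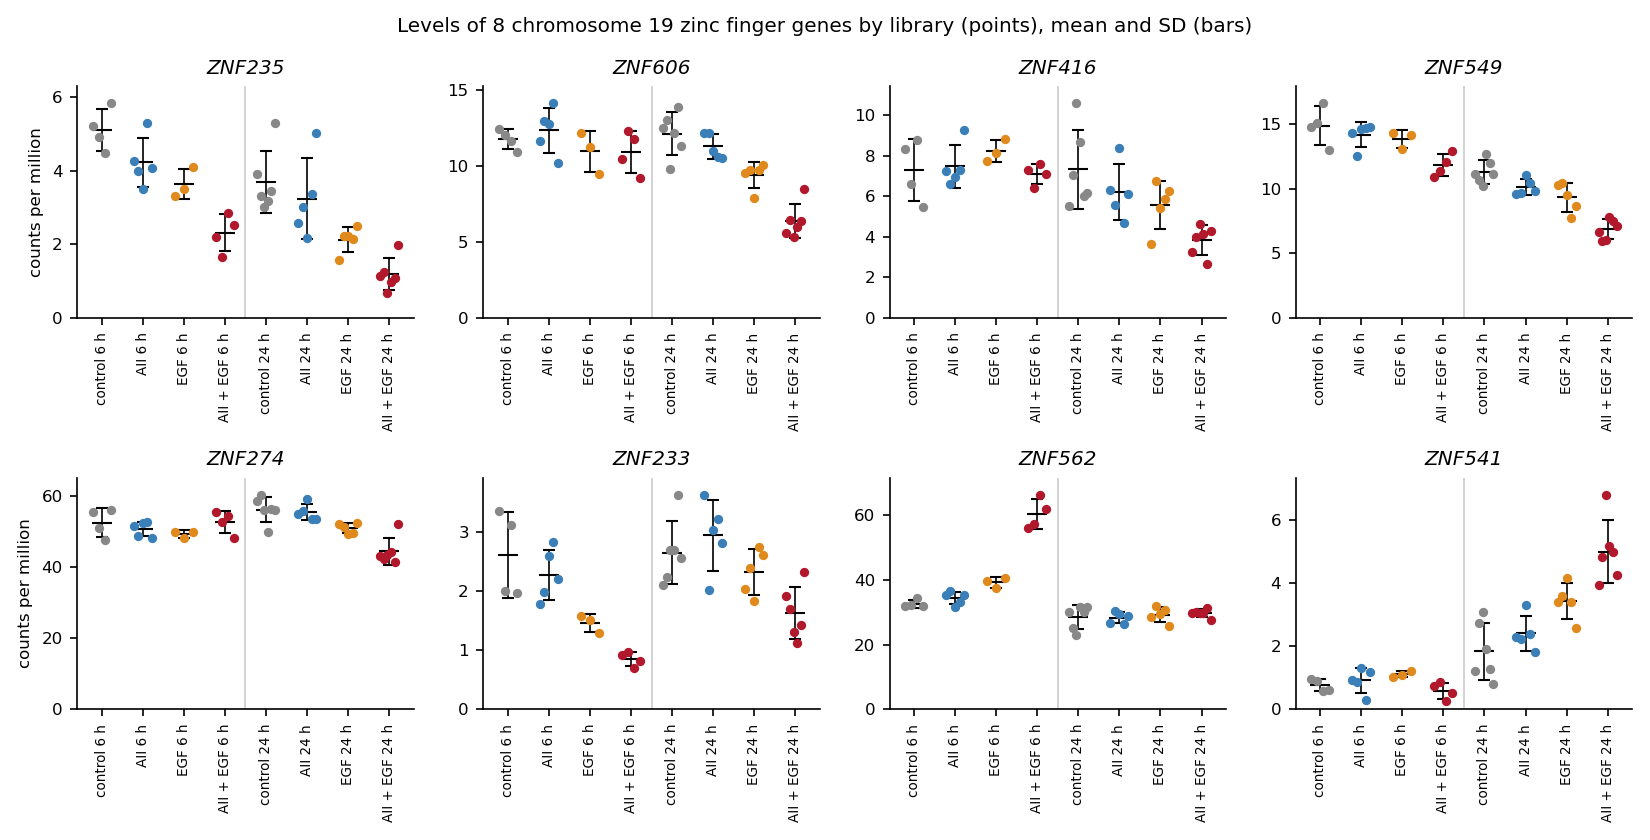
Levels in CPM (y axis) of 8 zinc finger genes of chromosome 19 in each used library (points, by group) with the group mean and SD (bars). The 6 AII + EGF libraries at 24 h (rightmost) lie low for ZNF235, ZNF606, ZNF416 and ZNF549 and high for ZNF541, and ZNF562 stands high in the 4 AII + EGF libraries at 6 h.

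The size of the 24 h count depended on the fit. With AII + EGF against control, a fit on those groups alone gave 16 falls (1.42% of all genes tested there fell), no filter on low counts 26 (1.62%), runs of consecutive library titles as a block 70 (11.6%), and leaving out replicate 6 of the 4 groups 43 (6.41%). The median log2 change was negative in each of the 4 title runs that hold both groups (-0.21, -0.22, -0.40 and -0.23, the last being that of replicates 6), where the medians of all tested genes lay between -0.02 and 0.00201.

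**Figure D2:**
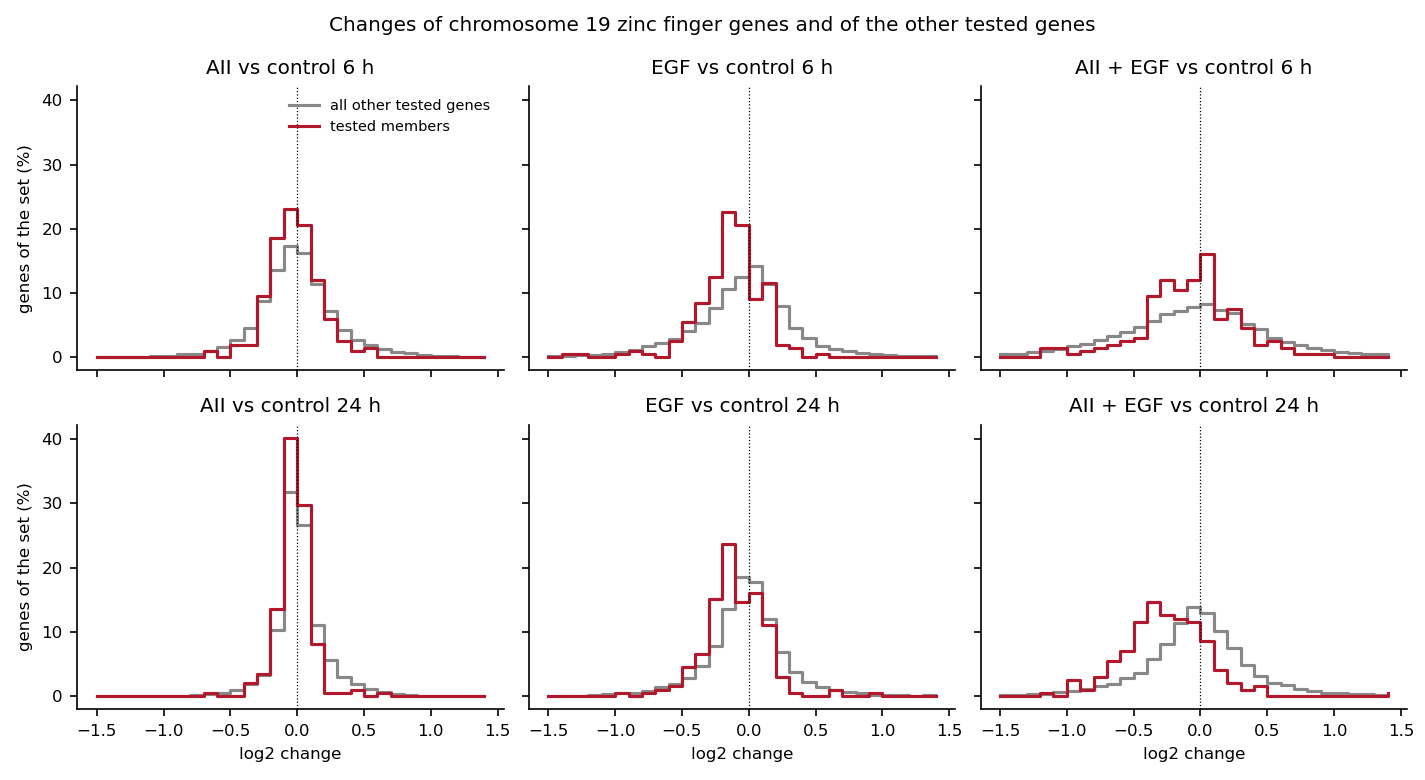
Log2 change against the control of the same time for the 199 tested zinc finger genes of chromosome 19 (red) and all other tested genes (grey), as percent of each set per bin of 0.1. Changes beyond 1.5 are not drawn, and under AII + EGF at 24 h the red curve lies towards negative changes (median -0.27).

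AII alone passed for 0 of the 199 at 6 h (edgeR, where 0.836% of all tested genes rose and 0.0866% fell) and for 0 at 24 h (0% and 0% of all). At an unadjusted p under 0.05, 4 were lower and 1 higher at 6 h (4.72% and 7.34% of all tested genes), and 1 was lower at 24 h (0.662% of all were lower and 1.09% higher). DESeq2 gave 0 at both times. EGF alone passed for 0 at 6 h (edgeR, where 2.71% of all rose and 0.657% fell), and DESeq2 gave 1 fall, beside 217 falls and 655 rises over all tested genes. At an unadjusted p under 0.05, 17 were lower and 4 higher, where 7.26% of all tested genes were lower and 10.5% higher. Its median log2 change was -0.12, against -0.01 over all tested genes, and 150 of the 199 (75.4%) were negative, against 51.6% of all. EGF at 24 h lowered ZNF557 (0.392% of all tested genes rose and 0.194% fell), and 31 members were lower and 3 higher at an unadjusted p under 0.05, where 7.47% of all tested genes were lower and 7.18% higher. ZNF557 held 9.09 to 11.3 CPM in the controls (median 10.7) and 7.59, 8.73, 7.58, 7.24 and 8.02 CPM under EGF, so the groups did not overlap. The log2 change was -0.40 (adjusted p = 0.00807, edgeR), a call lost in 8 of the 11 fits without 1 library (adjusted p up to 0.0371) and in 10 of 14 alternatives (up to 0.257). Under AII + EGF at 24 h ZNF557 changed by -0.49 ± 0.08 (adjusted p = 5.40e-05).

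The joint response at 24 h was also set against each single stimulus, comparisons added after the data had been seen, which share libraries with those against control. Against AII 28 zinc finger genes were lower (14.1%) and ZNF541 was higher (0.503%), where 2.26% of all tested genes fell and 2.38% rose, and the median log2 change was -0.26, against -0.02 over all tested genes. The call of ZNF541 was lost in 7 of 11 fits without 1 library (adjusted p up to 0.0234). Leaving out 1 library lowered that count of 29 to 14 at the least (without AII + EGF replicate 5), and to between 15 and 19 without AII + EGF replicate 2, 3 or 4 or AII replicate 2 or 6. Without replicate 6 of the 4 groups at 24 h, 23 were lower and 1 higher, where 3.51% of all tested genes fell and 3.75% rose. Against EGF 1 gene, ZNF606, was lower (0.0459% of all fell, 0.122% rose), with a log2 change of -0.56 and an adjusted p of 0.00975 in edgeR. That call was lost in 9 of 11 fits without 1 library (adjusted p up to 0.0375). At an unadjusted p under 0.05, 52 members were lower and 2 higher than under EGF, where 4.96% of all tested genes were lower and 5.71% higher. The difference was negative for 165 of 199 (82.9%, against 51.3% of all), and its median was -0.19, against -0.00679 over all tested genes.

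At 6 h AII + EGF lowered 18 zinc finger genes (9.05%) and raised 5 (2.51%), where 11% of all tested genes fell and 12.4% rose. The median log2 change was -0.05, against -0.03 over all tested genes. With the minimum of 1.5-fold and 5 CPM, 9 fell (5.53% of all) and 4 rose (6.45%). In 35 members each AII + EGF library lay under each control library, beside 15.9% of all tested genes. Scaled by library totals, 27 fell and 2 rose, where 14.8% of all tested genes fell and 9.27% rose. The median was then -0.16, against -0.14 over all tested genes. The total of 23 became 14 without control replicate 3, and 9 without replicates 1 and 2 of AII + EGF and AII, whose title run has no control in use. In that last fit 7.15% of all tested genes fell and 9.58% rose.

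ZNF233 fell most at 6 h. Its 4 control libraries held 3.35, 2.01, 3.12 and 1.97 CPM and its 4 AII + EGF libraries 0.927, 0.964, 0.696 and 0.826 CPM. The groups were apart, and the log2 change was -1.60 ± 0.24 (adjusted p = 1.70e-06, edgeR). The neighbouring ZNF235 held 5.21, 4.92, 4.46 and 5.83 CPM in the controls and 2.20, 1.66, 2.84 and 2.53 CPM under AII + EGF, a log2 change of -1.15 ± 0.23 (adjusted p = 0.000155) without overlap. ZNF524, whose product holds 4 fingers and no KRAB-A-like stretch, held 6.44, 6.20, 3.98 and 5.48 CPM in the controls and 3.02, 2.79, 2.35 and 2.79 CPM under AII + EGF, a log2 change of -1.01 ± 0.21 (adjusted p = 0.000234). ZNF599 held 5.53, 6.52, 6.40 and 5.74 CPM and then 3.12, 2.89, 3.69 and 3.77 CPM, a log2 change of -0.84 ± 0.14 (adjusted p = 5.22e-06). Each of these genes had separate groups. ZNF837 (-1.10), ZNF547 (-1), ZNF836 (-0.96) and ZNF428 (-0.83) were the others of the 8 largest falls. The calls of ZNF837 and ZNF428 were lost in 2 and 1 of 8 fits without 1 library (adjusted p up to 0.0109 and 0.0121), and that of ZNF837 also with title runs as a block (up to 0.0206 over the alternatives). Without replicates 1 and 2 of AII and AII + EGF at 6 h the calls of ZNF235, ZNF547, ZNF836 and ZNF428 were lost, and those of ZNF235 and ZNF836 also with all 48 libraries (adjusted p up to 0.0166 and 0.0253 for these 2 genes over the alternatives).

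The 5 rises at 6 h were led by ZNF562, a KRAB zinc finger gene. Its controls held 31.9, 32.2, 34.5 and 31.9 CPM and its AII + EGF libraries 56.1, 57.4, 66.3 and 62.0 CPM. The rise was larger than the spread in either group, with a log2 change of 0.89 ± 0.09 (adjusted p = 2.15e-10, edgeR). The EGF libraries lay between at 39.7, 37.4 and 40.6 CPM. ZNF584 rose by 0.62 ± 0.11 (adjusted p = 3.28e-05), ZNF841 by 0.67 ± 0.17 (adjusted p = 0.00191) and ZNF121 by 0.68 ± 0.19 (adjusted p = 0.00543). ZNF536, which is known from neurons, rose by 0.52 ± 0.14 (adjusted p = 0.00262). Without 1 library the calls of ZNF121, ZNF536 and ZNF841 were lost in 6, 2 and 1 of 8 fits (adjusted p up to 0.0205, 0.021 and 0.0101). The call of ZNF536 was also lost in 7 of 14 alternatives, title runs as a block among them, with log2 changes from 0.12 to 0.53 and adjusted p up to 0.599. Those of ZNF121 and ZNF841 were lost in 4 and 2 of 14 (up to 0.0637 and 0.0665), scaling by library totals among them. With AII + EGF against EGF at 6 h, ZNF562 was higher (0.62) and ZNF599 lower (-0.75), while 2.70% of all tested genes rose and 2.72% fell. Both calls were lost with all 48 libraries (adjusted p up to 0.059 and 0.0448 over the alternatives).

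Of the 199 tested members 6 were lower under AII + EGF at both times (ZNF233, ZNF235, ZNF547, ZNF586, ZNF599 and ZNF836), 12 were lower at 6 h and did not pass at 24 h, and 38 were lower at 24 h and did not pass at 6 h. ZNF841 rose at 6 h and fell at 24 h, and 137 passed at neither time. This split was not made over all tested genes, of which 11% fell at 6 h and 5.10% at 24 h. It therefore shows nothing particular to the members. The group sizes also differed, with 4 libraries in each group at 6 h and 6 at 24 h. The 24 h calls of ZNF547, ZNF599, ZNF233 and ZNF841 were lost in 10, 9, 5 and 10 of 12 fits without 1 library (adjusted p up to 0.0302, 0.0379, 0.0231 and 0.031), and in 10, 10, 6 and 10 of 14 alternatives. The difference itself was tested as the 24 h response minus the 6 h response. It passed as negative for 22 members (11.1%, against 8.84% of all tested genes) and as positive for 3 (1.51%, against 7.59%). By sign alone it was negative for 68.8% of the members, against 51.3% of all tested genes, with medians of -0.20 and -0.02. The split depended on the scaling. By library totals 10 negative and 7 positive differences passed, where 6.26% of all tested genes passed as negative and 10.1% as positive. With offsets for GC content and length 21 and 7 passed, beside 10.6% and 8.79% of all. Without AII + EGF 24 h replicate 2 the total of 25 became 16. ZNF649 had the difference -1.27 ± 0.22 (adjusted p = 3.51e-05, edgeR) and ZNF841 -1.17 ± 0.22 (adjusted p = 8.45e-05). The difference of ZNF562, whose level at 24 h was 27.6 to 31.2 CPM under AII + EGF and 23 to 31.6 CPM in the controls, was -0.84 ± 0.11 (adjusted p = 5.49e-07). ZNF541 (1.82 ± 0.47), ZNF524 (1.41 ± 0.27) and ZNF576 (0.78 ± 0.20) had the 3 positive differences that passed.

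**Figure D3:**
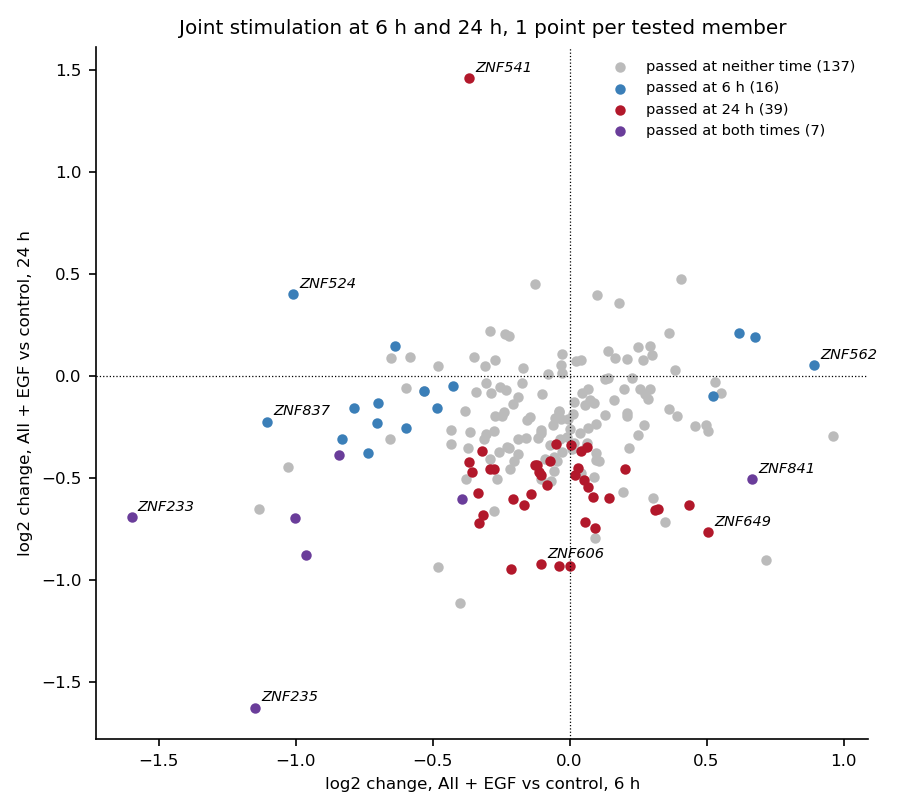
Log2 change under AII + EGF at 6 h (x axis) and at 24 h (y axis) for the 199 tested zinc finger genes of chromosome 19, coloured by the time at which a gene passed. Most points that passed at 24 h lie near 0 on the x axis and below 0 on the y axis, and ZNF233 and ZNF235 lie low on both.

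Summed over all 237 genes, the level in the 24 h controls was 2674 to 3424 CPM (median 3117, n = 6) and under AII + EGF 2539 to 3047 CPM (median 2782, n = 6), groups that overlapped. At 6 h the sums were 3251, 3320, 3368 and 3317 CPM in the controls and 3474, 3404, 3541 and 3164 CPM under AII + EGF.

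For comparison, ZNF genes of other chromosomes fell in 32 of 215 tested cases (14.9%) and rose in 5 under AII + EGF at 24 h, with a median log2 change of -0.10. The other protein-coding genes of chromosome 19 fell in 24 of 847 (2.83%) and rose in 75, with a median of 0.08. At 6 h the falls were 17 of 215 (7.91%) and 119 of 847 (14%). The difference between these groups of genes was not tested.

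Members with and without a KRAB-A-like stretch are given apart, as a description with no test of the difference. At 24 h 41 of 163 with the stretch (25.2%) and 4 of 36 without it (11.1%) were lower, with median log2 changes of -0.30 and -0.09. At 6 h it was 10 of 163 (6.13%) and 8 of 36 (22.2%), with medians of -0.05 and -0.21. GC content moved with this split, the median GC of the longest coding transcript being 42.3% with and 60.4% without the stretch. The members lower at 24 h had GC of 37.5 to 52.3% (median 43.2) and those lower at 6 h of 36.3 to 70.1% (median 48.2). The median number of fingers was 11 in those lower at 24 h and 8.5 in those lower at 6 h.

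Libraries differed in how GC-rich genes stood against GC-poor ones, measured as the median log2 CPM of the 10% of genes with the highest GC minus that of the 10% with the lowest. This difference was -1.65 to -0.262 in the 24 h controls and -0.996 to -0.319 under AII + EGF. Its part in the results was not tested. Among genes of 41.3 to 46.4% GC, 29 of 84 members (34.5%) and 7.32% of 2759 other protein-coding genes were lower at 24 h. From 30.7 to 41.3% GC it was 9 of 68 (13.2%) and 5.51% of 2776 others. From 46.4 to 52.8% GC it was 7 of 23 (30.4%) and 5.53% of 2822. From 52.8 to 59.1% GC it was 0 of 4 and 3.70% of 2838, and above 59.1% GC 0 of 20 and 1.70% of 2824. Above 59.1% GC the 20 members had a median log2 change of -0.00962 at 24 h and of -0.42 at 6 h. There 7 of them were lower at 6 h (35%, against 16.4% of 2824 others). In each range below 59.1% GC the share lower at 6 h was smaller among members than among the others. From the lowest range up it was 4.41%, 7.14%, 8.7% and 0% of members, against 8.39%, 11.2%, 12.4% and 15%. With offsets for GC content and transcript length, an alternative added after the data had been seen, 44 members were lower at 24 h, 38 of them among the 45, and 25 at 6 h. Over all tested genes 6.16% were lower at 24 h and 12% at 6 h with these offsets.

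**Figure D4:**
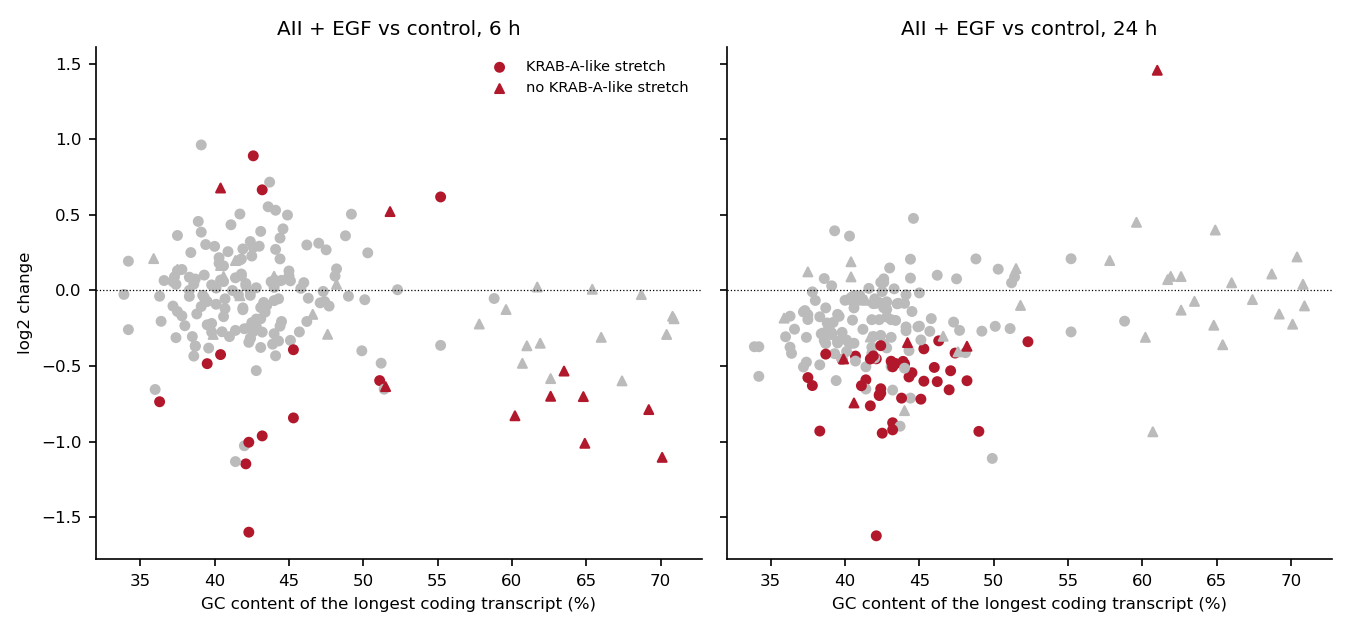
Log2 change under AII + EGF (y axis) against the GC content of the longest coding transcript (x axis) at 6 h and 24 h, 1 point per tested member, red where it passed, circles with and triangles without a KRAB-A-like stretch. At 24 h the red circles gather between 37.5 and 52.3% GC, and at 6 h 7 of the 10 red triangles lie above 59.1% GC.

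Promoters of members lower at 24 h held CCGGAAG in 23 of 37 cases (62.2%), against 52 of 140 (37.1%) for members that did not pass. AACTACA stood in 13 of 37 (35.1%) and 22 of 140 (15.7%). These letters were picked after reading promoters of members that were lower at 24 h, so this contrast cannot serve as a test. For the members lower at 6 h CCGGAAG stood in 3 of 15 (20%) and AACTACA in 4 of 15 (26.7%). Members that did not pass at 6 h held them in 71 of 158 (44.9%) and 29 of 158 (18.4%). These counts are descriptions and say nothing of binding.

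A new cluster began where the gap to the start of the next member exceeded 1 Mb. This gave 16 clusters along the chromosome, some of 1 gene only (ZNF333 and ZNF536 among them). The last, chr19:55476617-58489533 (ZNF628 to ZNF446), held 50 tested members, of which 19 were lower at 24 h and 7 lower and 1 higher at 6 h. In this cluster 37 of the 50 changes at 24 h were negative (median log2 change -0.27). Over all tested genes 5.10% were lower and 53.3% had a negative change at 24 h. At 6 h 11% of all were lower and 12.4% higher. Between chr19:51571283 and 53580269 (ZNF175 to ZNF331) 9 of 34 were lower at 24 h, and 33 of the 34 changes were negative. Between chr19:43530835 and 45076478 (ZNF575 to ZNF296), which holds ZNF233 and ZNF235, 7 of 23 were lower at 24 h and 4 at 6 h. At 24 h 21 of the 23 changes there were negative (median -0.40). In the cluster from 19668153 to 23944714, which holds ZNF91, 2 of 20 were lower at 24 h and 16 members were not tested. Yet 19 of its 20 changes at 24 h were negative (median -0.36). In the cluster from 36182060 to 37779586, with ZNF146 and ZNF420, 1 of 24 was lower at 24 h. Of its 24 changes 18 were negative (median -0.17).

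**Figure D5:**
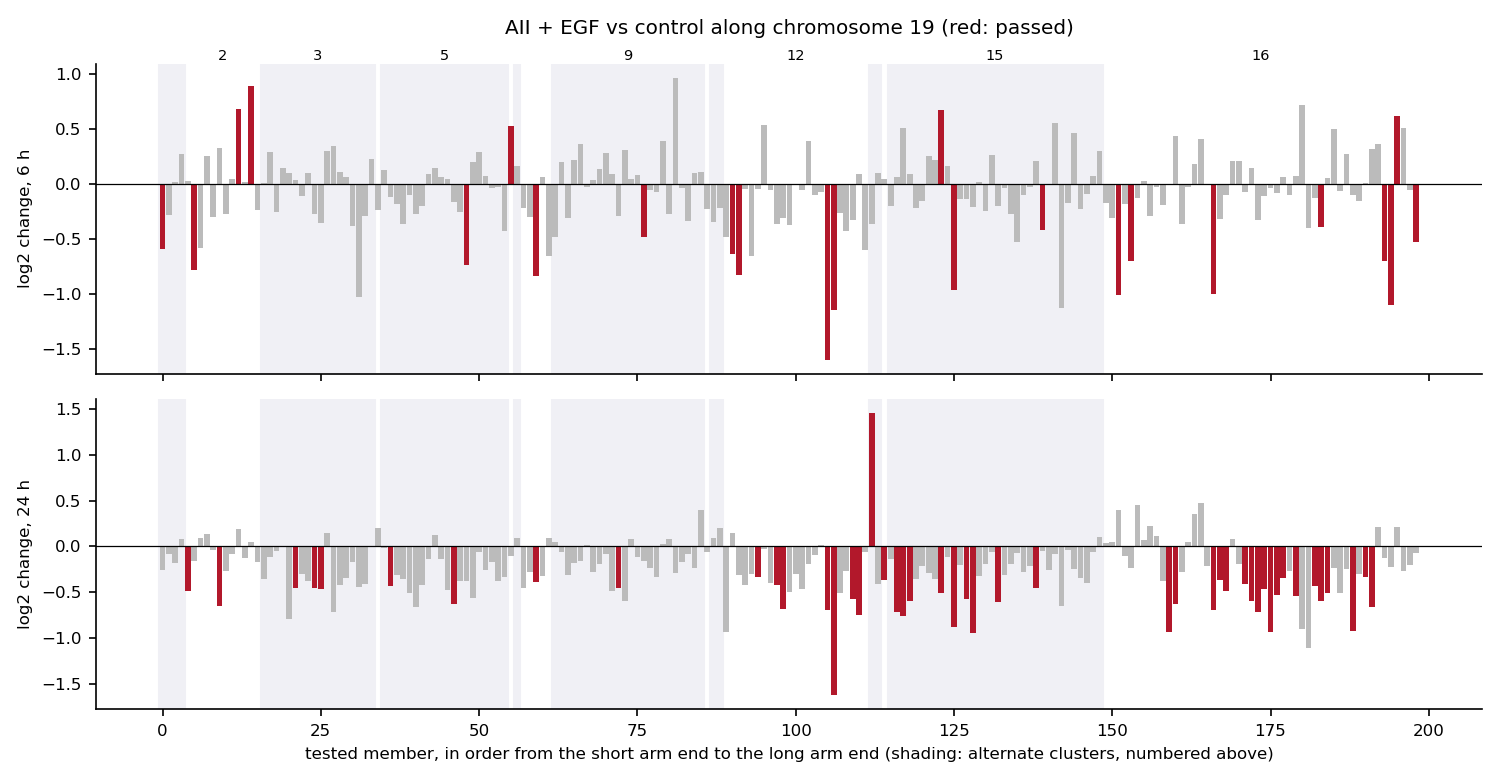
Log2 change under AII + EGF at 6 h (top) and 24 h (bottom) for each tested member in its order along chromosome 19, red where it passed, with alternate clusters shaded and those of more than 5 tested members numbered. Cluster 16 holds 19 of the red bars below 0 at 24 h.

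A list of 24 genes, of partners of KRAB zinc finger proteins (TRIM28, HP1, SETDB1, HUSH) and of related chromatin regulators, was tested whole. Under the single stimuli 1 of them passed in edgeR, the remodeller CHD4, which fell under EGF at 24 h (log2 change -0.54, adjusted p = 0.00926). Under AII + EGF 2 of the 24 rose and 3 fell at 6 h, where 12.4% of all tested genes rose and 11% fell, and 3 fell at 24 h, where 5.10% of all fell. AII + EGF at 6 h raised the DNA methyltransferase DNMT1 (0.29) and the histone methyltransferase SUV39H2 (0.33) and lowered EHMT1 (-0.77, adjusted p = 7.50e-11), EHMT2 (-0.78) and KDM4A (-0.40), enzymes that add or remove histone H3 methylation, all values being log2 changes. At 24 h it lowered the deacetylase HDAC1 (-0.56), UHRF1 (-0.30) and the HUSH subunit MPHOSPH8 (-0.47). TRIM28 itself held 514 ± 119 CPM in the 24 h controls and 525 ± 76.4 CPM under AII + EGF (mean ± SD, n = 6 each), a log2 change of 0.03 that did not pass (adjusted p = 0.893).

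The sources used here do not state whether counting used the strand or how reads that map to several places were treated. Zinc finger genes share long near-identical stretches, so that reads of paralogs, and of antisense or overlapping genes, could have been split between members, and the value of a single member is uncertain in that respect.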

How the data were processed

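RNA-seq libraries were aligned by the authors with HISAT2 2.1.0 (hg38), and the raw counts per Ensembl gene that featureCounts gave were deposited without normalisation, in a table of 48 libraries. The labels gave the groups. Replicate numbers follow the order of deposition and pair nothing, and runs of consecutive titles served as a block in an alternative. The members, lists and tests were chosen with earlier results of these data known. All totals lay between 17.8 M and 36.2 M counts, which limits the precision of members near 1 CPM.

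Here counts of 38 libraries in 8 groups were filtered with filterByExpr (19626 genes), scaled with TMM factors and fitted in 1 quasi-likelihood model in edgeR 4.0.16 (R 4.3.3) without covariates. A gene passed at a Benjamini-Hochberg adjusted p under 0.01 over all tested genes. The steps were tested on simulated data. DESeq2 1.42.0, other scalings, filters, thresholds and sets of libraries were the alternatives. GC and length offsets, the fit without replicate 6 of the 24 h groups and AII + EGF against AII or EGF at 24 h were added after the data had been seen.

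Named genes were, for each comparison with control, the 8 largest rises and falls that passed, and the 8 members with the highest mean CPM. Fixed names were ZNF91, ZNF93, ZNF146, ZNF175, ZNF224, ZNF274, ZNF331, ZNF420 and ZNF473. The 24 genes of the partner list, EGR1, ETV5 and cell markers stood beside them. A further fixed name is not analysed here. ZNF549, ZNF576 and ZNF586 were chosen after their values were seen, as were the genes that only end a cluster. Gene positions and promoters came from RefSeq (GRCh38.p14). Reading frames, GC content and length came from GENCODE transcripts of another build, of which no coordinate is given, and fingers were counted as C, 2 to 4 residues, C, 12 residues, H, 2 to 6 residues, H.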

Additional observations from a re-analysis of the deposited data

Results flagged for a closer look

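In 6 of 60 groups of 4 to 6 libraries, taken over the named genes that passed, 1 library stood far from the rest by Dixon's 95% criterion, which chance alone reaches in about 1 group in 20. At 6 h these were ZNF562 in control replicate 5 (34.5 CPM), ZNF836 in control replicate 3 (2.77 CPM) and ZNF841 in AII + EGF replicate 5 (11 CPM). At 24 h they were ZNF583 in control replicate 5 (6.60 CPM), and ZNF606 (8.51 CPM) and ZNF274 (52.1 CPM) in AII + EGF replicate 6, the library with an ETV5 level near that of the controls.

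The joint response differed between the times, by the test of the 24 h minus the 6 h log2 change, for 12 named members. The difference was negative for ZNF649 (-1.27), ZNF841 (-1.17), ZNF583 (-0.93), ZNF416 (-0.89), ZNF562 (-0.84), ZNF180 (-0.84), ZNF606 (-0.82), ZNF536 (-0.62), ZNF557 (-0.51) and ZNF274 (-0.34), and positive for ZNF541 (1.82) and ZNF524 (1.41). The calls of ZNF416, ZNF536 and ZNF274 were lost in 10, 10 and 11 of 20 fits without 1 library, and those of ZNF541 and ZNF557 in 3 each. Under the 14 alternatives those of ZNF536, ZNF557, ZNF274, ZNF416 and ZNF583 were lost in 8, 8, 7, 5 and 1.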

How the results depend on the processing

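Counts are given as rises and falls together, with AII + EGF against control as the joint response. Brackets give the percent of all tested genes that rose and that fell in the same setting. For the difference between times they give the positive and the negative ones. For the joint response at 24 h the 46 calls (5.29%, 5.10%) became 14 (1.70%, 1.20%) with the 1.5-fold and 5 CPM minima. At an adjusted p under 0.05 there were 73 (9.49%, 10.2%), without a filter 27 (2.16%, 1.62%). With only the groups compared there were 17 (2.17%, 1.42%), with title runs as a block 72 (10.8%, 11.6%). These calls held 1 rise in each setting, and 2 with the block. At 6 h the 23 calls (12.4%, 11%) became 13 (6.45%, 5.53%) with those minima and 40 (16.9%, 16.4%) at 0.05. They became 15 (8.49%, 6.75%) with the libraries of doubtful label. Without replicates 1 and 2 of AII and AII + EGF 6 h they became 9 (9.58%, 7.15%). Falls made up 9, 29, 11 and 7 of these, in the same order. For the difference between times the 25 calls (7.59%, 8.84%) became 49 (12%, 13.6%) at 0.05 and 15 (3.05%, 3.09%) without a filter. They became 14 (6.35%, 6.48%) with only the groups compared and 15 (5.53%, 6.56%) without those 4 libraries. Negative differences made up 39, 12, 12 and 13 of these, in the same order. For AII + EGF against AII at 24 h the 29 calls (2.38%, 2.26%) became 8 (0.856%, 0.596%) with the minima and 52 (5.18%, 5.92%) at 0.05. Without a filter they became 15 (0.96%, 0.686%), with only the groups compared 7 (0.917%, 0.397%) and with the block 51 (6.08%, 7.07%). With the doubtful labels they became 16 (1.18%, 1.24%), without those 4 libraries 18 (2.19%, 1.65%) and with the study's filter 19. These calls held 1 rise in each setting, and 0 with the doubtful labels. For AII + EGF against EGF at 24 h the 1 call (0.122%, 0.0459%) became 4 (0.346%, 0.107%) in DESeq2. It became 7 (0.387%, 0.153%) at 0.05, 14 (1.09%, 0.744%) with the block and 2 (0.325%, 0.17%) without replicate 6 of the 24 h groups. It became 0 with the minima, GC and length offsets, RLE factors, library totals or no filter. The count was also 0 with the study's filter, only the groups compared, the doubtful labels or without those 4 libraries. At 6 h the 2 calls of AII + EGF against EGF (2.70%, 2.72%) became 8 (5%, 5.42%) at 0.05. They became 5 (6.49%, 5.68%) with only the groups compared, 5 (5.09%, 4.34%) with the block and 1 (1.58%, 0.94%) without those 4 libraries. With all 48 libraries (0.409%, 0.212%) or with the doubtful labels (0.188%, 0.0559%) they became 0. For EGF at 24 h the 1 call (0.392%, 0.194%) became 4 (0.876%, 0.555%) in DESeq2 and 7 (1.13%, 0.932%) at 0.05. With the block it became 11 (2.74%, 2.74%) and with the offsets 2 (0.988%, 0.463%). Without replicate 6 of the 24 h groups it became 3, and with the other 9 alternatives 0. The 7 and the 11 each held 1 rise, and the other calls were falls. For EGF at 6 h the 0 calls (2.71%, 0.657%) became 1 (3.34%, 1.11%) in DESeq2 and 2 (4.59%, 1.8%) at 0.05. They became 2 (3.69%, 3.13%) with all 48 libraries and 1 (4.23%, 1.75%) with the block. AII alone gave 0 throughout. The cause of these shifts was not tested, except that stricter or looser thresholds lower or raise counts by construction. Without 1 library at a time the counts ran from 37 to 61 (joint, 24 h), 14 to 23 (joint, 6 h), 16 to 33 (difference), 14 to 31 and 0 to 6 (against AII and EGF at 24 h), 2 to 4 (against EGF at 6 h) and 0 to 3 (EGF, 24 h), and stayed at 0 for EGF at 6 h and AII. Library totals moved the median of all genes at 6 h to -0.14 for the joint response and -0.11 for EGF, and those of the members to -0.16 and -0.22. Of 55 named results that passed, 33 passed in each fit without 1 library, 55 in DESeq2 and 19 in each of the alternatives, and none of them changed direction in the alternatives run. Low counts limit members near 1 CPM.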
